A study of Mus musculus with 30 samples.

Results

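The genes described here are 34 mouse genes known to be imprinted, that is, expressed mainly or only from the copy inherited from 1 parent. They were taken by name from a written list, in every raw count column of 4 bulk RNA-seq tables and in both single-cell matrices, out of 55341 genes in the annotation used for positions. By their usual description 11 of them are expressed from the maternal copy, 21 from the paternal copy, and 2, Gnas and Inpp5f, from either copy depending on the transcript. They lie at 17 loci, of which 10 hold a single gene of the list.

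An imprint is DNA methylation set in the egg or the sperm at a control region, kept on that parental chromosome after fertilisation by zinc finger proteins such as ZFP57 together with TRIM28 and the maintenance methyltransferase. A single control region can set the expression of several neighbouring genes, some from each parental copy. Many of these genes act on growth before and just after birth: Igf2 is a growth factor of the fetus, Cdkn1c restrains the cell cycle, Igf2r removes IGF2, and several are known to fall in many organs as growth slows. The counts used here do not separate the parental copies, so every value below is the RNA of both copies together.

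All libraries were made from wild-type mouse primary cardiac fibroblasts, the connective tissue cells of the heart. The first set held fibroblasts of neonatal (P1 to P3), 3-month, 12-month and 24-month mice after 3 days in culture. The second held neonatal, 3-month and 18-month fibroblasts 3 days after transduction with LacZ, a control gene, or with MGT, the cardiac transcription factors Mef2c, Gata4 and Tbx5, which are used to turn fibroblasts into cells like heart muscle. The third held neonatal fibroblasts with a control vector (OECtrl) or with added Nr4a3 (OENr4a3), a nuclear receptor, at day 10 by the sample labels and day 7 by the design text. The fourth held 3-month fibroblasts that all received MGT, with a non-targeting hairpin RNA (shNT) or a hairpin RNA against Nr4a3 (shNr4a3), at day 7. Each of these 14 groups had 2 libraries. The labels do not say whether the libraries of a group came from separate animals or cultures, so each p-value measures the spread between those libraries, which may be technical. A pair of 10x Genomics single-cell libraries held MGT-treated cells of neonatal and of 24-month mice, with 1 library per age.

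The libraries held about 14275500 to 22311300 counts in the first 3 sets and 39746900 to 43448400 in the knockdown set. Levels are given as CPM, counts scaled to a common library total. The introduced or targeted genes moved as the labels say: Nr4a3 stood at 2.17 ± 0.45 CPM (SD, n = 2) with the control vector and 177 ± 1.7 CPM with added Nr4a3, and at 8.51 ± 0.47 CPM with shNT and 0.587 ± 0.22 CPM with shNr4a3. Tbx5 stood at 0.605 to 2.21 CPM (means of 3 ages) with LacZ and at 244 to 284 CPM with MGT. The female-specific RNA Xist averaged 1283 CPM in fibroblasts of neonatal and 804 CPM in those of 24-month mice. It averaged 0.464 and 0.367 CPM in those of 3 and 12 months. Between the ages with high and with low Xist, age and the sex of the cells cannot be told apart. The groups whose libraries differed most from each other were shNr4a3, LacZ at 3 months, OECtrl and shNT, with a chi-square per degree of freedom of 26.5, 20.8, 17.0 and 13.3 over genes, against 2.35 to 7.29 in the other 10 groups. Of counts between 1 and 50, 71.7 to 73.0% were even in the knockdown libraries, against 40.2 to 43.1% in the others. Whether both mates of a read pair were counted there is not given in the sources used here.

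The promoter and processed RNA sequences below introduce the loci whose genes moved most. They are RefSeq sequences on GRCm38.p6; 28 of the 34 genes were found in the promoter table. Capitals mark the 6 letters TGCCGC or, on the other strand, GCGGCA, the methylated motif that ZFP57 is known to bind. The motif was searched on both strands over up to 250 bases before each start. It was present in 7 of 46 windows of the imprinted genes (15.22%) and in 2850 of 32851 windows of all genes (8.676%), which is a description of letters and not of binding. Genes of a shared locus on chromosome 12 are shown first, because Meg3 and Dlk1 fell and Dio3 rose between neonatal and adult fibroblasts. The Meg3 window is chr12:109540746-109540995 (plus strand) with 1 motif and 10 CpG, the Dlk1 window is chr12:109452573-109452822 (plus strand) with 0 motifs and 8 CpG, and the Dio3 window, cut to 88 bases, is chr12:110278980-110279067 (plus strand) with 0 motifs and 10 CpG.
Meg3: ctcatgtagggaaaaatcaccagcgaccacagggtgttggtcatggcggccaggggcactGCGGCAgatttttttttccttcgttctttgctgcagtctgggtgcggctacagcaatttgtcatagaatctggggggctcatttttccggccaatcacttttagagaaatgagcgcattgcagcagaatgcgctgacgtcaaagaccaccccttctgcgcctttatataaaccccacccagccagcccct
Dlk1: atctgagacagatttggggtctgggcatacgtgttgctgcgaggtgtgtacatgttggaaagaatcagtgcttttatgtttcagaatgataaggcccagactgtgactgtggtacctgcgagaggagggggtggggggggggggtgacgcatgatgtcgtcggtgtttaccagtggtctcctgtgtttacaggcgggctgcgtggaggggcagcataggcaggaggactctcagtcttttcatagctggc
Dio3: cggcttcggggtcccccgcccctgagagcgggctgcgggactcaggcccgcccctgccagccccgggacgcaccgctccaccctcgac

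Mest is shown because it was among the genes that fell most with age, and Nap1l5 because it rose most after Nr4a3 knockdown. The Mest window is chr6:30737800-30738049 (plus strand) with 2 motifs and 14 CpG. The Nap1l5 window is chr6:58907127-58907376 (minus strand) with 1 motif and 10 CpG. The last sequence lies between the starts of Peg3 and Usp29, which are 163 bases apart and are read in opposite directions, at chr7:6730422-6730582 (minus strand). It holds 0 motifs.
Mest: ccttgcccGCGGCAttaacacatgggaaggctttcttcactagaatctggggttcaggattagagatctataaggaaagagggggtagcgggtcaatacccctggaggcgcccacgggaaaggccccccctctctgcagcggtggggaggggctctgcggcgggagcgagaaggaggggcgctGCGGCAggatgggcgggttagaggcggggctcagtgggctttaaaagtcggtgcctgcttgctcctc
Nap1l5: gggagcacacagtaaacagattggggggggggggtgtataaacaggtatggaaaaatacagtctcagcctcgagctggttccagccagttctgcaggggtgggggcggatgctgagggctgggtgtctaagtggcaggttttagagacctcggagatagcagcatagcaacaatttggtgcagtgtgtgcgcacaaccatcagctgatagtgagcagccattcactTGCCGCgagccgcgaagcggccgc
Peg3-Usp29: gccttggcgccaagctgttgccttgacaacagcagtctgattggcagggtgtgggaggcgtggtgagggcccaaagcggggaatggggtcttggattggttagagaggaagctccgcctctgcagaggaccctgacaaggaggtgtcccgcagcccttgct

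Several of the RNAs are also hosts of microRNAs, short RNAs that pair with targets through bases 2 to 8, the seed, which is in capitals here. They were not measured in these libraries. Those of H19, Mest, Rian and Mirg are shown because their host RNAs changed several-fold. H19 holds miR-675, Mest holds miR-335, Rian holds miR-370 among 3 hairpins, and Mirg holds miR-541 among 14 hairpins. The hairpin of miR-127 lies within Rtl1 on the opposite strand, where a maternal transcript is read. The 6 seeds differ from each other.
miR-675-5p: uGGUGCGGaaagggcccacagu
miR-675-3p: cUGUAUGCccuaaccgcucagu
miR-335-5p: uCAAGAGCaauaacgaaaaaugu
miR-370-3p: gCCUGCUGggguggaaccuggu
miR-541-5p: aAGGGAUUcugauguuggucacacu
miR-127-3p: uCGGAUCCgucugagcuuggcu

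The first comparison asked how fibroblasts of adult and old hearts differ from neonatal ones in culture. Most of the imprinted genes fell. At 3 months 23 of 32 tested genes were lower than in neonatal fibroblasts and 4 were higher (edgeR, adjusted p under 0.05), where 24.4% of all tested genes were lower and 28.0% higher (52.5% in either direction). The median log2 fold change was -1.71 over the 32 genes and 0.01 over all genes. At 12 months 22 were lower and 5 higher, against 25.5% and 29.7% of all genes (55.2% together). At 24 months 22 were lower and 5 higher, against 26.6% and 27.9% (54.5% together), with medians over the imprinted genes of -1.86 and -2.03. These 3 comparisons share the neonatal libraries. Those at 3 and 12 months also set low against high Xist, so age and sex cannot be told apart in them. Phlda2 and Magel2 had too few counts to be tested.

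Split by parental copy, all 10 tested maternally expressed genes were lower at 3 months, with a median log2 fold change of -2.37, and none was higher. Of the 20 tested paternally expressed genes 13 were lower and 4 higher, with a median of -1.10. At 24 months the counts were 9 lower and 0 higher of 10 maternal genes (median -3.26), and 13 lower and 5 higher of 20 paternal genes (median -1.03). Gnas and Inpp5f passed at none of the 3 ages. Gnas, which encodes the stimulatory G protein alpha subunit, stood at 411 and 402 CPM in the neonatal libraries and at 382 to 412 CPM in the 6 adult ones, a log2 fold change at 3 months of -0.05 ± 0.04 (SE, edgeR adjusted p = 0.34). Summed over all 34 genes, the neonatal libraries held 5431 and 5381 CPM, those of 3 months 2930 and 2967, those of 12 months 2286 and 2281, and those of 24 months 2469 and 2434. Both neonatal sums lay above all 6 adult sums.

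**Figure D1:**
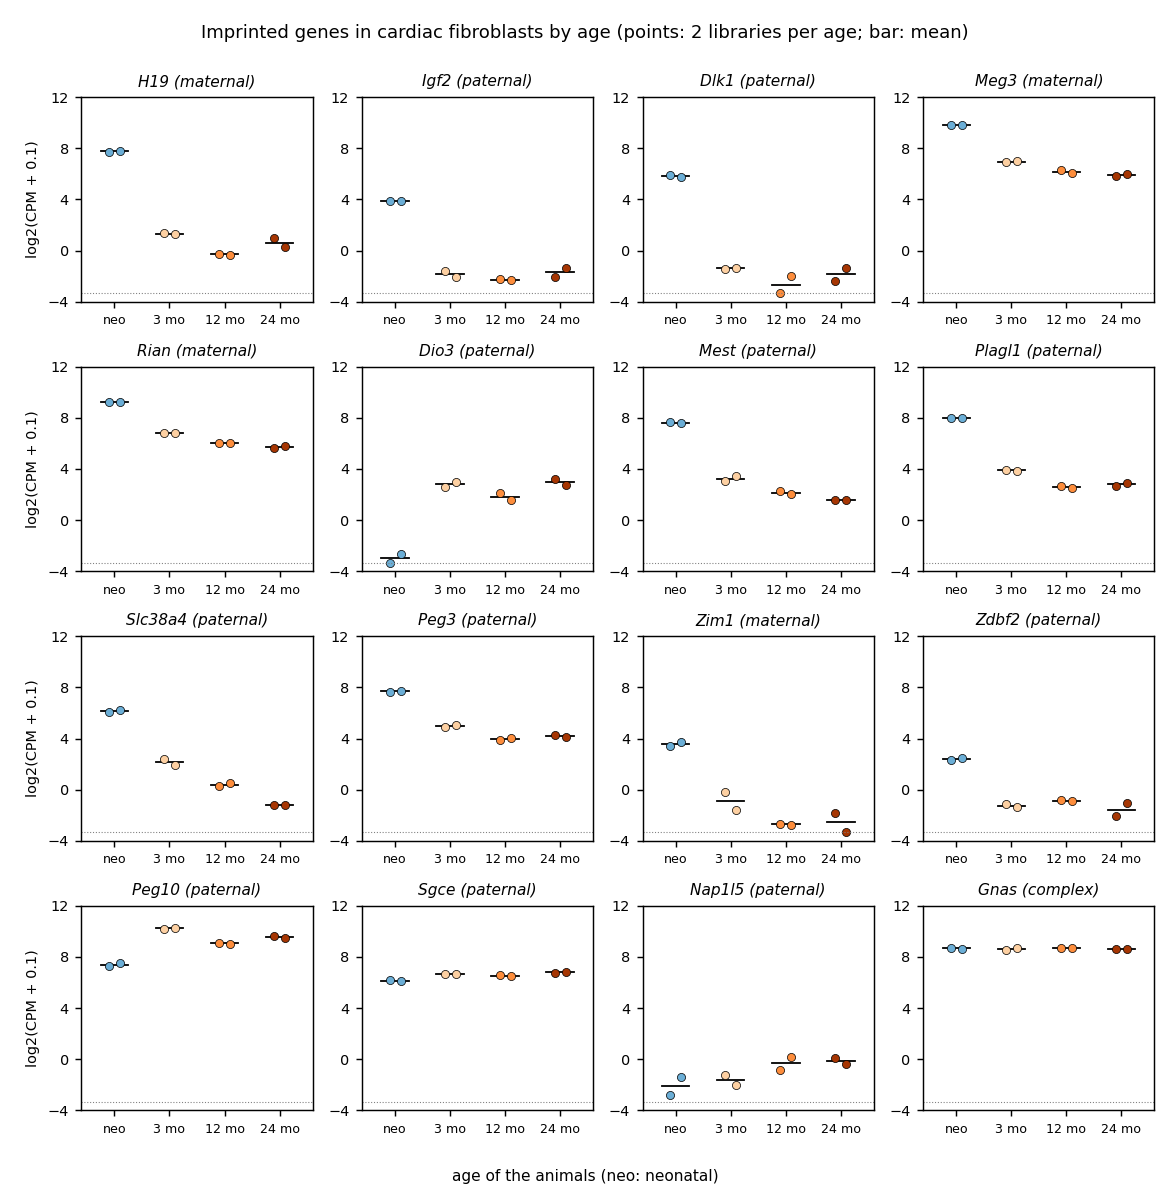
Level of 16 imprinted genes, as log2 of CPM plus 0.1, in each cultured cardiac fibroblast library (points, 2 per age) with the mean of each age (bar); the dotted line marks 0 CPM. Neonatal points lie above all adult points for H19, Igf2, Dlk1, Meg3, Rian, Mest, Plagl1, Slc38a4, Peg3, Zim1 and Zdbf2, below them for Dio3, Peg10 and Sgce, and among them for Gnas.

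At the Igf2-H19 locus on chromosome 7, H19 (ENSMUSG00000000031, 7:142575529-142578143, minus strand), a maternally expressed long non-coding RNA, held 213 and 221 CPM in the neonatal libraries. It held 2.43 and 2.4 CPM at 3 months, 0.745 and 0.697 at 12 months, and 1.83 and 1.09 at 24 months. All 6 adult values lay far below both neonatal values, with a log2 fold change of -6.48 ± 0.09 at 3 months (edgeR adjusted p = 1.4e-32) and -7.20 at 24 months. Igf2, the paternally expressed growth factor beside it, held 14.8 and 14.6 CPM in neonatal cells and 0.0995 to 0.285 CPM in the adult libraries. Its log2 fold change at 3 months was -6.26 ± 0.28 (edgeR adjusted p = 5.6e-19). The annotation places Igf2os on the other strand of Igf2, and without a stated strand setting the counts of the pair cannot be told apart.

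At the Kcnq1 locus, Cdkn1c, a maternally expressed inhibitor of cyclin-dependent kinases, held 10.2 and 8.7 CPM in neonatal cells and 1.09 to 1.98 CPM in adult cells (-2.29 ± 0.20 at 3 months). The paternally expressed non-coding RNA Kcnq1ot1, which is read across the Kcnq1 gene on the other strand, changed little: 17.1 and 19.2 CPM in neonatal cells against 13.1 to 15.8 CPM in adult cells. Its fall at 3 months was -0.41 ± 0.11 (edgeR adjusted p = 0.0013). The call at 12 months was lost in 5 of 9 alternative fits and that at 24 months in 3 of 9. Both were lost without the second neonatal library. Reads of Kcnq1ot1 and Kcnq1 cannot be told apart where they overlap.

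The Dlk1-Dio3 locus spans 828.3 kb of chromosome 12 and held members moving in opposite directions. Meg3 (ENSMUSG00000021268, 12:109541001-109571726, plus strand), the maternally expressed non-coding RNA whose promoter is printed above, held 913 and 882 CPM in neonatal cells. It held 119 and 128 CPM at 3 months, 77.4 and 65.2 at 12 months and 55.6 and 64.4 at 24 months. The neonatal values stood above all adult values, and the log2 fold change was -2.87 ± 0.07 at 3 months (edgeR adjusted p = 9.8e-14) and -3.90 at 24 months. The other maternal RNAs of the locus, which carry small nucleolar RNAs (Rian) and microRNAs (Mirg), fell too. Rian went from 607 and 612 CPM to 111 and 113, then 65.1 and 66.4, then 50.9 and 55.1 CPM, and Mirg from 27.1 and 24.2 CPM to 1.43 to 3.79 CPM over the 6 adult libraries.

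The paternally expressed genes of the locus divided. Dlk1, an EGF-like membrane protein of progenitor and fetal cells, held 58.6 and 53.9 CPM in neonatal cells and 0 to 0.288 CPM in the adult ones, with 1 adult library at 0 counts (-7.63 ± 0.20 at 3 months, edgeR adjusted p = 1.4e-25). Rtl1, a gene derived from a retrotransposon, held 1.92 and 1.36 CPM in neonatal cells and 0.0958 to 0.19 CPM in adult cells. Rtl1 reads share their position with microRNA precursors on the opposite strand and cannot be told apart from them. Dio3, the enzyme that inactivates thyroid hormone, went the other way. It had counts of 0 and 1 in the neonatal libraries (0 and 0.0568 CPM), 5.94 and 7.86 CPM at 3 months, 4.13 and 2.84 at 12 months and 9.29 and 6.51 at 24 months. The ratio of 3-month to neonatal counts was 267 with a 95% counting interval of 47.6 to 10589, at 12 months 134 (23.6 to 5320), and at 24 months 308 (54.8 to 12189). With 1 neonatal count in all, the size of this rise is known only within those intervals.

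At the Peg3 locus on chromosome 7, all 3 genes fell. Peg3, a paternally expressed zinc finger protein, held 204 and 216 CPM in neonatal cells, 30.5 and 32.5 at 3 months, 15 and 16.4 at 12 months and 19.7 and 17.6 at 24 months (-2.74 ± 0.06 at 3 months, edgeR adjusted p = 1.5e-27). Usp29, a ubiquitin protease whose start is 163 bases from that of Peg3, held 2.81 and 2.96 CPM and then 0 to 0.135 CPM. The maternally expressed Zim1, another zinc finger gene, held 10.8 and 13.3 CPM and then 0 to 0.764 CPM. The adult values of each of these genes lay below both neonatal values.

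The 4 genes of the Snrpn locus are all paternally expressed, and of the 3 tested only Snrpn was called at 3 months. Ndn, a MAGE family protein, held 84 and 74 CPM in neonatal cells against 63 to 73.2 CPM in adult cells, and its fall did not pass at 3 months (-0.12, edgeR adjusted p = 0.089). It passed at 12 and 24 months, but the call at 12 months was lost in 2 of 9 alternative fits. One of these left out the first neonatal library (-0.10). Snrpn, which encodes a spliceosomal protein, held 15.1 and 14.4 CPM in neonatal cells and 7.96 and 7.86 CPM at 3 months (-0.90 ± 0.13, edgeR adjusted p = 2.8e-07), but 13.2 and 16.7 CPM at 12 months. Peg12 stood at 5.18 to 7.66 CPM in all 8 libraries, and its change at 3 months was -0.05 (edgeR adjusted p = 0.83). Magel2 was at or below 0.114 CPM in every library of this set.

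At the Peg10-Sgce locus on chromosome 6, Peg10 and Sgce rose and Ppp1r9a and Asb4 fell at 3 months. Peg10 (ENSMUSG00000092035, 6:4747306-4760517, plus strand), a paternally expressed gene derived from a retrotransposon, held 157 and 180 CPM in neonatal cells. It held 1194 and 1211 CPM at 3 months, 552 and 524 at 12 months and 817 and 733 at 24 months. The 3-month libraries were the highest and the neonatal ones the lowest, with a log2 fold change of 2.84 ± 0.06 at 3 months (edgeR adjusted p = 1.2e-17) and 2.21 at 24 months. Its neighbour Sgce, epsilon-sarcoglycan, which is read from the same region in the other direction, rose much less, from 74.2 and 68 CPM to 91.5 to 113 CPM (0.49 ± 0.05 at 3 months). The maternally expressed genes of the locus fell: Ppp1r9a, the actin-binding protein neurabin, from 17.5 and 17 CPM to 4.69 to 7.86 CPM, and Asb4 at 3 months from 6.99 and 7.22 CPM to 3.6 and 2.44 CPM (-1.22 ± 0.19).

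The maternally expressed genes that restrain growth factor signalling were the most abundant of the 34 per kb of exon in neonatal cells. Igf2r, the receptor that carries IGF2 to the lysosome, held 1060 and 1056 CPM in neonatal cells, 478 and 467 at 3 months, 584 and 615 at 12 months and 534 and 546 at 24 months (-1.16 ± 0.04 at 3 months, edgeR adjusted p = 1.9e-22). Airn, the paternal non-coding RNA read across Igf2r on the other strand, held 22.3 and 19.9 CPM and then 10.9 to 12 CPM, but its reads cannot be told apart from those of Igf2r in their overlap. Grb10, an adaptor that dampens insulin and IGF receptor signalling, held 825 and 799 CPM in neonatal cells and 160 to 187 CPM in adult cells (-2.12 ± 0.05 at 3 months, edgeR adjusted p = 1.6e-27). In each case both neonatal libraries were above all 6 adult ones.

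Among the genes that stand alone at their locus, several paternally expressed ones fell by more than 10-fold. Plagl1, a zinc finger transcription factor, held 254 and 258 CPM in neonatal cells, 15 and 14.3 at 3 months, 6.13 and 5.72 at 12 months and 6.19 and 7.55 at 24 months (-4.12 ± 0.06 at 3 months, edgeR adjusted p = 1.6e-31). Mest (ENSMUSG00000051855, 6:30723547-30748465, plus strand), an enzyme of the alpha/beta hydrolase fold, held 200 and 191 CPM in neonatal cells, 8 and 10.7 at 3 months, 4.64 and 3.93 at 12 months and 2.81 and 2.85 at 24 months (-4.39 ± 0.08 at 3 months). Slc38a4, an amino acid transporter, held 66.3 and 74.1 CPM, then 5.26 and 3.64, then 1.09 and 1.34, then 0.328 and 0.333 CPM. Its level was lower at each successive age, with no overlap between ages. Zdbf2 held 5.02 and 5.51 CPM in neonatal cells and 0.141 to 0.458 CPM in adult cells, and Nnat, a small membrane protein, 6.52 and 4.09 CPM and then 1.94 to 2.52 CPM.

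The remaining genes of this kind changed by less than 2-fold or were near the floor. Impact, which acts on translation under amino acid shortage, rose from 115 and 111 CPM to 127 to 157 CPM (0.21 ± 0.05 at 3 months, edgeR adjusted p = 0.00093). Inpp5f, a phosphoinositide phosphatase, held 24.9 CPM in both neonatal libraries and 24.8 to 28.5 CPM in adult ones (0.01 ± 0.08 at 3 months, edgeR adjusted p = 0.92). Nap1l5, a nucleosome assembly protein family member that lies inside Herc3, held 0.0469 and 0.284 CPM in neonatal cells and 0.144 to 1.04 CPM in adult cells. It did not pass at 3 months (0.56 ± 0.85, edgeR adjusted p = 0.62) and passed at 12 and 24 months. The call at 12 months was lost in 2 of 8 alternative fits and that at 24 months in 1 of 9. Both were lost without the first neonatal library.

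Neonatal fibroblast cultures also held more RNA of other cell types. In the same comparison at 3 months all 9 cardiomyocyte markers were lower, as were 6 of 8 endothelial, 8 of 8 epicardial, 4 of 5 pericyte and 7 of 8 macrophage markers. The summed cardiomyocyte markers stood at 1023 to 1112 CPM in neonatal libraries and 9.94 to 33.7 CPM in adult ones, with Myl7 at 0 in the adults. The endothelial sum stood at 954 to 965 against 73.5 to 176 CPM, the epicardial sum at 170 to 172 against 1.29 to 6.70, the pericyte sum at 899 to 903 against 98.8 to 204, and the macrophage sum at 286 to 289 against 133 to 234. The fibroblast markers summed to 21328 to 21402 CPM in neonatal and 17811 to 29244 CPM in adult libraries. The part of these other cells in the fall of the imprinted genes was not tested in the bulk libraries. In bulk RNA, fewer cells of a type and less RNA per cell cannot be told apart. Values within fibroblast-like single cells are given further on.

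Among adult ages the changes were smaller and mixed. Between 3 and 12 months 13 imprinted genes were lower and 5 higher, where 28.5% of all genes were called. Between 3 and 24 months 12 were lower and 6 higher, where 18.3% of all genes were called, and between 12 and 24 months 5 were lower and 5 higher, where 18.9% were. The median log2 fold changes were -0.16, -0.16 and 0.00. The 24-month libraries differed in Xist from those of 3 and 12 months. In these comparisons with 24 months, age and sex cannot be told apart. Slc38a4 was lower at 24 than at 12 months, with a log2 fold change of -1.87 ± 0.42 (edgeR adjusted p = 0.0013), and at 24 than at 3 months, with -3.73 ± 0.30 (edgeR adjusted p = 4e-11). Meg3 and Rian were lower at 24 than at 3 months by -1.04 and -1.08 on the log2 scale, Mest by -1.72, Plagl1 by -1.10, Peg3 by -0.75 and Peg10 by -0.63. Snrpn and Asb4 were higher at 24 than at 3 months, by 0.76 and 0.99. Of the 10 calls between 12 and 24 months, those of H19, Peg3, Ppp1r9a, Igf2r and Mest were lost without 1 library, and those of Slc38a4, Rian, Peg10, Sgce and Dio3 (1.20 on the log2 scale) remained under each library left out.

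Levels between genes were compared only per kb of exon length. In neonatal fibroblasts the order was Igf2r at 114 ± 0.28 CPM per kb (SD, n = 2), Grb10 at 89.3 ± 2.1, H19 at 82.5 ± 2.1, Mest at 49.5 ± 1.6 and Meg3 at 47.1 ± 1.2, and Mest and Meg3 lay within 2 SD of each other. Peg10 stood at 25.2 ± 2.5 CPM per kb there. At 3 months Peg10 led at 180 ± 1.7 CPM per kb, followed by Igf2r at 50.8, Gnas at 34.5, Impact at 25.4 and Grb10 at 20.6. Peg10 also led at 12 months (80.7 ± 3.0) and at 24 months (116 ± 8.9), with Igf2r next at 64.4 and 58.0. Peg10 took 3.11% of the summed CPM of the 34 genes in neonatal cells and 40.8% at 3 months, while Meg3 took 16.6% in neonatal cells.

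In the untransduced fibroblasts some ratios within a locus separated neonatal from adult libraries and others did not. Rian per 100 of Meg3, both per length, stood at 39.6 to 41.4 in the neonatal libraries and at 50.2 to 60.7 over the 6 adult libraries. Dlk1 per 100 of Meg3 stood at 20.6 to 21.6 in neonatal cells and at 1.49 or less in adult cells. With LacZ it did not separate the ages in this way. It stood there at 3.21 to 5.95 in neonatal cells, 1.93 to 3.10 at 3 months and 6.74 to 8.41 at 18 months. Sgce per 100 of Peg10 stood at 23.7 to 29.7 in neonatal cells and at 5.22 to 11.0 in adult cells. The Rian and Sgce ratios also separated neonatal from adult cells with LacZ. With MGT they overlapped between neonatal and 3-month cells, at 52.0 to 55.4 and 53.1 to 54.2 for Rian. For Sgce the values with MGT were 55.1 to 75.9 and 53.7 to 58.3. Airn per 100 of Igf2r was 2.96 to 3.31 in neonatal cells and 3.84 to 3.95 at 3 months, but 2.85 to 3.18 at 12 and 3.20 to 3.35 at 24 months, which overlap the neonatal range. Mirg per 100 of Meg3 was 7.17 to 7.75 in neonatal and 4.84 to 11.0 in adult libraries, and Rtl1 per 100 of Meg3 was 0.464 to 0.632 and 0.225 to 0.885, with overlap for both.

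Other genes beside the imprinted loci gave the background of the regions. They were taken by position only. They therefore include genes reported as imprinted in some tissues, such as Kcnq1, Snurf and Copg2, which overlap genes of the 34. Of 466 further genes within 250 kb of the 34, 104 were tested at 3 months: 26 were higher and 29 lower (52.9%), with a median log2 fold change of -0.04. At 12 months 34 were higher and 25 lower, and at 24 months 25 and 28. Their share of calls stood near that of all genes, and the 27.9% that were lower at 3 months compares with 23 of 32 of the imprinted genes.

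The LacZ libraries gave an age contrast in a second set of cultures, for which Xist is not given here. At 3 months 19 imprinted genes were lower and 4 higher than in neonatal LacZ cells, where 15.8% and 15.1% of all genes were (30.9% together), with a median log2 fold change of -1.20. At 18 months 23 were lower and 5 higher, where 18.3% and 16.7% were (35.0% together), with a median of -1.51. Of the 27 genes called at 3 months in the untransduced fibroblasts and the 23 called with LacZ, 21 were called in both. This is 77.8% of the first and 91.3% of the second, where the shares over all genes tested in both sets were 45.3% and 77.2%. The direction was shared by 20 of these 21 genes, and Impact, higher in the first set and lower in the second, was the other. Over all genes called in both sets 90.8% shared the direction. Impact stood at 180 and 173 CPM with neonatal LacZ and at 149 and 150 CPM at 3 months, and this call was lost in some fits without 1 library.

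The tables were scaled separately, so levels are compared only within the LacZ and MGT set. H19 held 18.5 and 21.9 CPM in neonatal LacZ cells, 3.84 and 3.07 at 3 months and 1.62 and 0.746 at 18 months, a log2 fold change at 3 months of -2.55 ± 0.21. Meg3 held 395 and 399 CPM, then 106 and 70.2, then 55 and 64.9 (-2.18 ± 0.15 at 3 months). Peg3 held 184 and 179 CPM, then 30 and 25.6, then 22.5 and 30.8 (-2.71 ± 0.12). All the neonatal values of these genes lay above the adult values. Plagl1 and Mest were lower at 3 months by -3.74 and -3.28 on the log2 scale. Slc38a4 held 56.6 and 62.4 CPM, then 12.1 and 12.5, then 1.22 and 0.622 CPM, and was lower at 18 than at 3 months by -3.72 ± 0.24 (edgeR adjusted p = 6.6e-12). Peg10 held 81.7 and 74.6 CPM in neonatal cells, 171 and 174 at 3 months and 99.3 and 130 at 18 months (1.14 ± 0.11 at 3 months, edgeR adjusted p = 1.7e-08). Dio3 rose from 0.114 and 0 CPM to 1.73 and 2.39 at 3 months, a ratio of 37.7 with a counting interval of 10.0 to 317. Between 3 and 18 months 7 genes were lower and 2 higher with LacZ, where 23.0% of all genes were called.

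Other cell types differed by age in this set too: with LacZ the cardiomyocyte sum was 291 to 339 CPM in neonatal cells against 2.99 to 4.87 CPM in adult ones, the endothelial sum 320 to 353 against 7.47 to 18.3, the epicardial sum 679 to 740 against 8.70 to 15.3 and the pericyte sum 350 against 27.0 to 40.5. The macrophage sum was higher in adult cells, at 321 to 360 CPM against 209 to 262 CPM. Their part in these differences was not tested.

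In cells that had received MGT the age difference was present and smaller for some genes. At 3 months 22 genes were lower and 2 higher than in neonatal MGT cells, where 13.5% and 12.5% of all genes were (26.1% together), with a median of -0.86. At 18 months 21 were lower and 5 higher, where 16.2% and 14.4% were (30.6% together), with a median of -1.30. Between 3 and 18 months 6 were lower and 2 higher, where 17.4% were. Meg3 was lower at 3 months by -1.18 ± 0.15 and Peg3 by -0.96 ± 0.11. Peg10 did not pass at 3 months (-0.15 ± 0.11, edgeR adjusted p = 0.39). Mest was lower by -4.59, and Peg3 was lower at 18 than at 3 months by -1.29 ± 0.11 (edgeR adjusted p = 9.9e-09). Without single libraries the count at 3 months was 15 to 17 in place of 24. In these libraries the cardiomyocyte sum was 1007 to 1477 CPM in neonatal against 290 to 369 CPM in adult cells, the endothelial sum 256 to 295 against 12.1 to 30.1, the epicardial sum 347 to 376 against 70.7 to 96.9, the pericyte sum 440 to 464 against 48.7 to 111, and the macrophage sum 173 to 241 against 377 to 446. Their part was not tested.

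**Figure D2:**
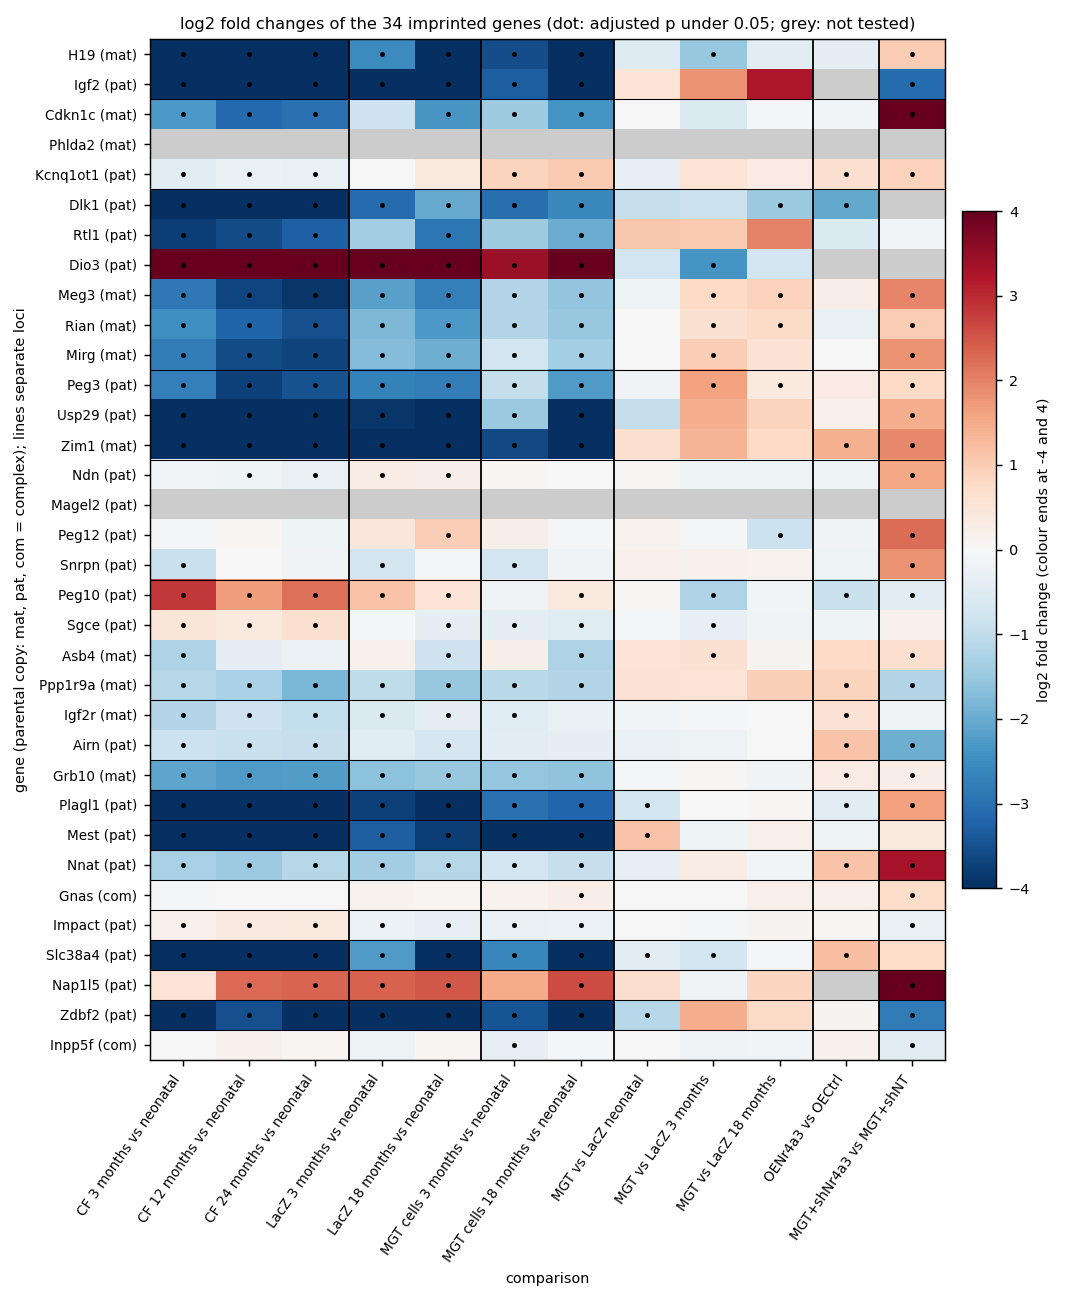
log2 fold changes of the 34 imprinted genes (rows, grouped by locus, with the expressed parental copy in brackets) in 12 comparisons (columns); red is higher and blue lower in the first named group, colours end at -4 and 4, dots mark an edgeR adjusted p under 0.05 and grey cells were not tested. The columns of age against neonatal cells are mostly blue apart from Dio3, Peg10 and Nap1l5, while the last column, Nr4a3 knockdown, is mostly red.

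The next comparison asked what MGT did within an age. In neonatal cells few imprinted genes moved: 1 was higher and 3 lower with MGT than with LacZ, where 7.51% of all genes were called. Mest rose from 21.3 and 22.6 CPM with LacZ to 49.7 and 46.3 CPM with MGT (1.13 ± 0.14, edgeR adjusted p = 2.1e-06). Plagl1 fell from 94.6 and 95.9 CPM to 61.9 and 48.9 CPM (-0.78 ± 0.11, edgeR adjusted p = 1.3e-05). Both genes showed no overlap between the groups. Slc38a4 (-0.44 ± 0.13) and Zdbf2 (-1.15 ± 0.31) also fell, and both calls were lost without some single libraries. With only the 4 libraries of this comparison in the fit, 4 genes were higher and 7 lower.

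In 3-month cells 5 genes were higher and 5 lower with MGT, where 17.4% of all genes were called. Peg3 rose from 30 and 25.6 CPM to 83.1 and 85.4 CPM (1.60 ± 0.12, edgeR adjusted p = 1.3e-10). The maternal RNAs of the chromosome 12 locus rose together: Meg3 from 106 and 70.2 to 143 and 162 CPM (0.79 ± 0.15), Rian from 101 and 89.8 to 134 and 155 CPM (0.60 ± 0.09) and Mirg from 3.45 and 3.12 to 6.07 and 6.83 CPM (0.97 ± 0.21). Peg10 fell from 171 and 174 CPM to 69.5 and 76.9 CPM (-1.24 ± 0.11, edgeR adjusted p = 1.3e-08). H19 fell from 3.84 and 3.07 to 1.18 and 1.24 CPM (-1.50 ± 0.31, edgeR adjusted p = 0.00086). None of these pairs of groups overlapped. The smaller calls of Dio3, Sgce and Asb4 were lost in at least 1 fit without a library.

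In 18-month cells 3 genes were higher and 2 lower, where 16.6% were called. Meg3 rose from 55 and 64.9 to 118 and 111 CPM (0.94 ± 0.15, edgeR adjusted p = 0.0012) and Rian from 68.4 and 68 to 126 and 105 CPM (0.76 ± 0.10, edgeR adjusted p = 2e-06). Peg12 fell from 11.5 CPM in both LacZ libraries to 6.65 and 5.87 CPM (-0.87 ± 0.18, edgeR adjusted p = 0.0013). Peg3 passed at 0.38 (edgeR adjusted p = 0.033), but not without the first 18-month LacZ library (0.17, adjusted p = 0.51). Peg10 stood at 99.3 and 130 CPM with LacZ and 101 and 110 CPM with MGT.

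The difference in the MGT effect between ages was tested as an interaction. From neonatal to 3 months 5 genes had a higher and 2 a lower effect, where 3.70% of all genes were called, from neonatal to 18 months 3 and 1, where 2.82% were, and from 3 to 18 months 1 and 1, where 2.34% were. Peg3 had an effect larger by 1.75 ± 0.16 on the log2 scale at 3 months than in neonatal cells (edgeR adjusted p = 5.43e-08) and Peg10 an effect lower by -1.29 ± 0.16 (edgeR adjusted p = 1.02e-05). Both differences were turned between 3 and 18 months, at -1.23 ± 0.17 for Peg3 and 1.12 ± 0.16 for Peg10, and these 4 calls remained with each library left out. Markers of other cells differed between these groups too: at 3 months the cardiomyocyte sum was 3.92 to 4.73 CPM with LacZ and 335 to 369 CPM with MGT, the epicardial sum 8.70 to 9.37 and 92.2 to 96.9 CPM, and the endothelial sum 15.9 to 18.3 and 21.9 to 30.1 CPM. In neonatal cells the cardiomyocyte sum was 291 to 339 CPM with LacZ and 1007 to 1477 CPM with MGT. The epicardial sum was 679 to 740 and 347 to 376 CPM there. At 18 months the cardiomyocyte sum was 2.99 to 4.87 and 290 to 301 CPM, and the epicardial sum 13.8 to 15.3 and 70.7 to 81.2 CPM. The part of these other cells in the changes with MGT at any age, including those of Peg3, Meg3, Peg10, Mest and Plagl1, was not tested.

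**Figure D3:**
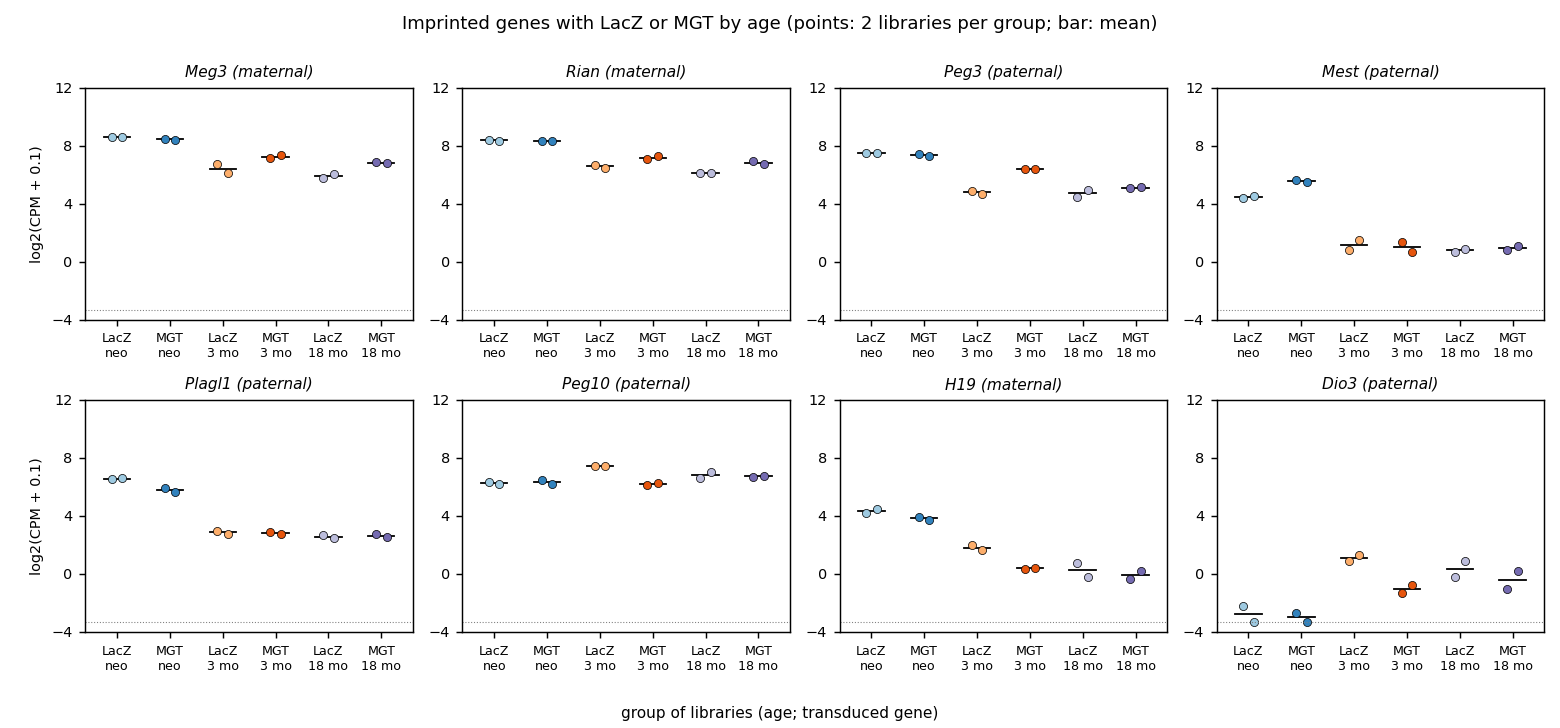
Level of 8 imprinted genes, as log2 of CPM plus 0.1, in each library (points, 2 per group) of neonatal, 3-month and 18-month cardiac fibroblasts with LacZ or MGT, with the group mean (bar). Peg3 with MGT stands above LacZ at 3 months (83.1 and 85.4 against 30 and 25.6 CPM), and Peg10 with MGT stands below LacZ at 3 months, while its groups overlap in neonatal and 18-month cells.

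Added Nr4a3 in neonatal fibroblasts was compared with the control vector. Here 8 imprinted genes were higher and 3 lower of 29 tested, where 11.9% and 10.8% of all genes were (22.7% together), with a median log2 fold change of 0.10. By parental copy 4 maternal genes were higher and 0 lower, and 4 paternal genes were higher and 3 lower. Peg10 fell from 318 and 248 CPM to 141 and 163 CPM (-0.90 ± 0.14, edgeR adjusted p = 0.0033). Dlk1 fell from 2.42 and 3.77 CPM to 0.771 and 0.723 CPM (-2.05 ± 0.38, edgeR adjusted p = 0.0079). Ppp1r9a rose from 11.2 and 9.45 CPM to 18.8 and 19.8 CPM (0.90 ± 0.15, edgeR adjusted p = 0.005). These 3 calls remained under each library left out, and their groups did not overlap.

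The other calls were less steady. Igf2r stood at 273 and 188 CPM with the control vector and 336 and 351 CPM with added Nr4a3 (0.58 ± 0.16, edgeR adjusted p = 0.03), Airn at 2.56 and 1.91 and then 4.41 and 5.51 CPM (1.15 ± 0.27), and Grb10 at 586 and 557 and then 740 and 705 CPM (0.34, adjusted p = 0.033). Plagl1 stood at 54.7 and 52.2 and then 42.8 and 37.5 CPM (-0.41, adjusted p = 0.033). Each of these, and the calls of Kcnq1ot1, Zim1, Nnat and Slc38a4, was lost in at least 1 fit without a library, and the total of 11 ranged from 4 to 19. Meg3 and Rian, neighbours on chromosome 12, did not pass (0.26, adjusted p = 0.16 and -0.30, adjusted p = 0.074). Rian per 100 of Meg3 stood at 38.6 to 42.3 with the control vector and 27.1 to 27.6 with added Nr4a3. Igf2, Dio3 and Nap1l5 were too low to be tested. In the same comparison the epicardial sum was 985 to 1055 CPM and then 441 to 474 CPM (6 of 8 markers lower), the macrophage sum 926 to 939 and then 604 to 623 CPM (3 of 8 lower), and 9 of 15 proliferation genes were lower. The cardiomyocyte sum was 455 to 501 and then 267 to 292 CPM, and the endothelial sum 44.8 to 48.4 and then 32.6 to 38.5 CPM. The pericyte sum was higher with added Nr4a3, at 148 to 151 against 83.6 to 105 CPM, and the fibroblast sums overlapped. Their part was not tested.

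Lowering Nr4a3 in 3-month MGT cells moved most of the imprinted genes, mainly upward. Of 30 tested genes 18 were higher and 7 lower with shNr4a3, where 27.9% and 26.7% of all genes were (54.5% together), with a median log2 fold change of 0.77. Of 10 maternal genes 8 were higher and 1 lower (median 1.02), of 18 paternal genes 9 were higher and 5 lower (median 0.77), and of the pair with complex imprinting Gnas was higher and Inpp5f lower. Phlda2, Magel2, Dlk1 and Dio3 were too low to be tested.

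Nap1l5, whose promoter is printed above, rose most, from 0.149 and 0.371 CPM with shNT to 14.9 and 13.8 CPM with shNr4a3 (5.75 ± 0.28, edgeR adjusted p = 2.7e-09). Cdkn1c (ENSMUSG00000037664, 7:143458339-143461050, minus strand) rose from 13.4 and 8.89 CPM to 317 and 337 CPM (4.88 ± 0.16, edgeR adjusted p = 2.5e-09). Per kb of exon it went from 5.46 ± 1.5 CPM to 160 ± 6.7 CPM (SD, n = 2) and became the highest of the 34 genes, ahead of Gnas at 71.7 CPM per kb. Nnat rose from 0.844 and 0.926 CPM to 9.38 and 8.04 CPM (3.29 ± 0.23). In all 3 genes the groups were far apart relative to the spread within them.

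At the Dlk1-Dio3 locus Meg3 rose from 146 and 153 CPM to 469 and 694 CPM (1.96 ± 0.17, edgeR adjusted p = 1.9e-05), Rian from 50.8 and 53.1 to 96 and 116 CPM (1.03 ± 0.10) and Mirg from 0.968 and 1.27 to 2.68 and 5.07 CPM (1.78 ± 0.34). The second shNr4a3 library was the higher for each of these RNAs. Rian per 100 of Meg3 was 35.9 to 36.0 in the shNT libraries and 17.3 to 21.2 in the shNr4a3 libraries. At the Snrpn locus all 3 tested genes rose. Ndn went from 17 and 16.9 to 52 and 46.2 CPM (1.54 ± 0.11), Snrpn from 7.8 and 10.1 to 33.7 and 29 CPM (1.81 ± 0.14) and Peg12 from 0.993 and 1.92 to 6.56 and 7.3 CPM (2.24 ± 0.28). Peg3 rose from 153 and 125 to 216 and 264 CPM (0.79 ± 0.12), Plagl1 from 5.61 and 5.37 to 16.7 and 17.6 CPM (1.64 ± 0.14), Kcnq1ot1 from 33.1 and 35.7 to 55.5 and 74.3 CPM (0.92 ± 0.13) and Gnas from 473 and 484 to 833 and 772 CPM (0.75 ± 0.08).

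A smaller number fell. Igf2 went from 6.6 and 5.05 CPM to 0.479 and 0.883 CPM (-3.09 ± 0.31, edgeR adjusted p = 2.5e-06), while H19 stood at 6.7 and 4.35 CPM and then 7.66 and 14.4 CPM. H19 passed at 1.00 ± 0.31 (edgeR adjusted p = 0.025) but not without the second shNr4a3 library (0.48, adjusted p = 0.13). Igf2 per 100 of H19, per length, was 40.8 to 48.1 with shNT and 2.54 to 2.59 with shNr4a3. Airn fell from 6.26 and 6.25 to 1.51 and 1.72 CPM (-1.95 ± 0.22, edgeR adjusted p = 7.8e-06), while Igf2r, which it overlaps, did not pass (-0.15, adjusted p = 0.14). Airn per 100 of Igf2r was 4.18 to 4.32 with shNT and 1.18 to 1.24 with shNr4a3. Ppp1r9a fell from 13.5 and 11.8 to 4.52 and 6.69 CPM (-1.17 ± 0.19), Zdbf2 from 0.794 and 0.556 to 0.0957 and 0.093 CPM (-2.80 ± 0.71) and Inpp5f from 15.2 and 14.5 to 10.5 and 11 CPM (-0.46). Peg10 stood at 364 and 323 CPM and then 230 and 285 CPM (-0.42 ± 0.10, edgeR adjusted p = 0.0047) and lost its call without the first shNT library (-0.33, adjusted p = 0.0715). Sgce, Mest and Slc38a4 did not pass (0.17, 0.40 and 0.74). The calls of Grb10 (0.27, adjusted p = 0.0497), Asb4, Usp29, Impact, Zdbf2 and Inpp5f were also lost in at least 1 fit without a library.

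**Figure D4:**
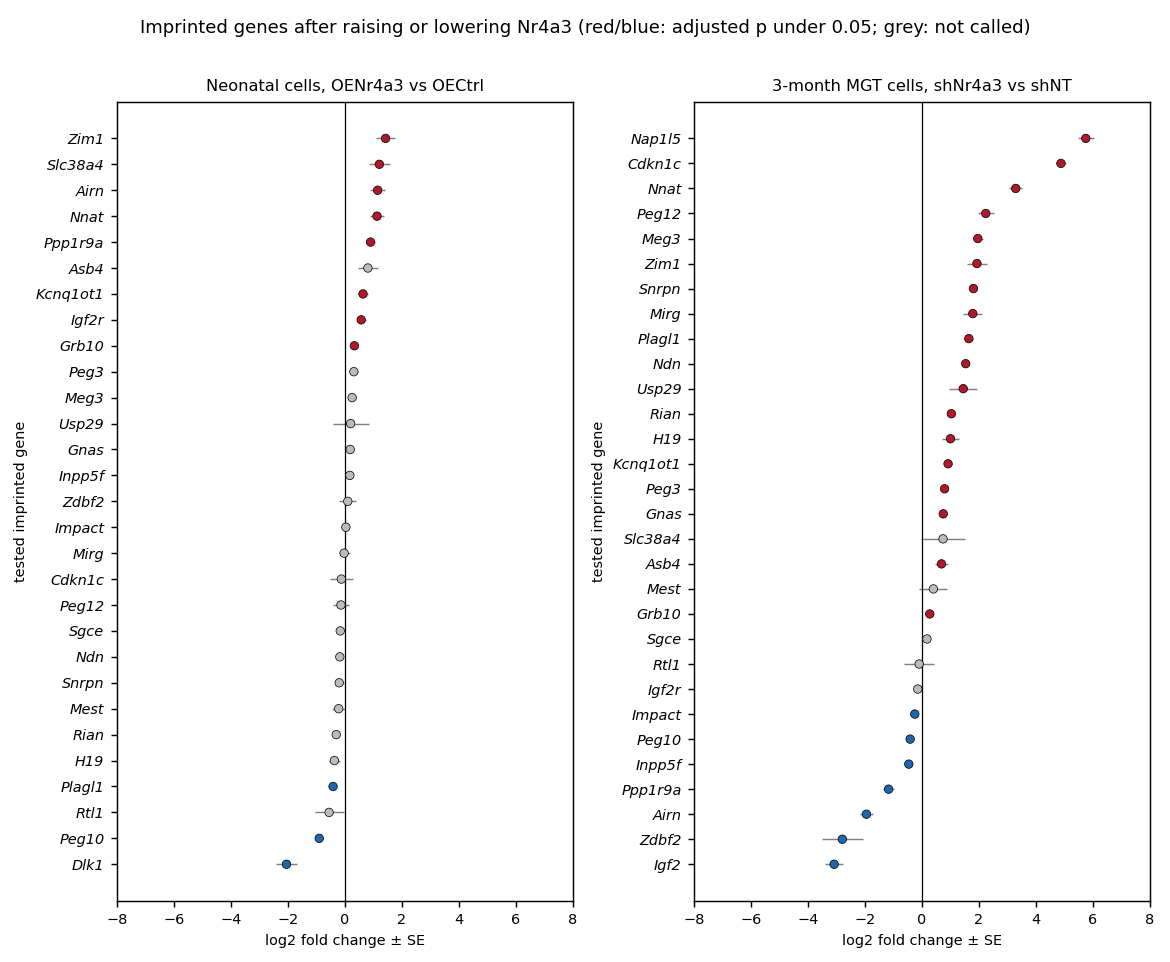
log2 fold change (point) and its SE (bar) of each tested imprinted gene with added Nr4a3 in neonatal fibroblasts (left, 29 genes) and with Nr4a3 knockdown in 3-month MGT cells (right, 30 genes), sorted by size; red and blue mark genes higher or lower at an edgeR adjusted p under 0.05, grey the others. The left panel spans -2.05 (Dlk1) to 1.43 (Zim1) and the right panel -3.09 (Igf2) to 5.75 (Nap1l5).

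Other measured properties moved with the knockdown. The cardiomyocyte markers summed to 9355 to 10944 CPM with shNT and 5279 to 6134 CPM with shNr4a3 (4 of 9 higher and 2 lower, median log2 fold change 0.37, so the sum and the median differ in sign), the fibroblast markers to 5171 to 5280 and 3655 to 3883 CPM (1 higher and 6 lower), and all 15 proliferation genes fell, with sums of 582 to 618 and 302 to 320 CPM. Protein-coding genes with a single exon had a median log2 fold change of 0.32 (371 genes) against 0.02 in those with several exons (13614 genes). Of the genes that rose, Ndn and Peg12 each have a single exon, as does the non-coding Kcnq1ot1. The part of these in the rise of the imprinted genes was not tested. With counts halved and rounded down, in case both mates were counted, 25 genes were again called. Of 112 tested neighbours within 250 kb, 33 were higher and 30 lower (56.3%, median 0.18).

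Comparing the Nr4a3 experiments, which share no library, 8 imprinted genes were called in both, or 72.7% of the 11 called with added Nr4a3 and 32.0% of the 25 called in the knockdown. Kcnq1ot1, Zim1, Peg10, Grb10 and Nnat moved in the same direction in both, and Ppp1r9a, Airn and Plagl1 in opposite directions. Over all genes the shares were 63.4% and 24.6%, and 54.2% of the genes called in both moved in the same direction. The experiments differed in age, in the presence of MGT and in day. Comparing the knockdown with fibroblast age, 20 genes were called both at 3 months against neonatal cells and in the knockdown (74.1% of 27 and 80.0% of 25). Of these, 16 moved in opposite directions and 4, Igf2, Ppp1r9a, Airn and Zdbf2, in the same one. The 27 include Dlk1 and Dio3, which were not tested in the knockdown. Over all genes tested in both, 5140 were called in both (65.5% and 61.6% of the calls), and 63.2% of them moved in opposite directions, so nothing particular to the imprinted genes can be read from this overlap.

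The single-cell libraries had 1 sample per age, so no test between ages was possible, and intervals cover counting error only. After filters 3828 of 4816 neonatal and 5773 of 6796 24-month barcodes were kept, with medians of 13959.5 and 20771 UMIs per cell, and the libraries shared 11 barcodes. Doublets were not removed. In counts summed over all kept cells, 13 of 33 imprinted genes with at least 10 UMIs differed 4-fold or more (3 higher and 10 lower at 24 months), where 3.89% of all genes were higher and 6.05% lower by that much (9.94% together). Dio3 went from 0.0570 to 7.45 CPM (ratio 131, 95% interval 63.2 to 326), Nap1l5 from 0.0570 to 1.17 CPM (20.4, 9.72 to 51.6) and Peg10 from 6.86 to 39.6 CPM (5.78, 5.38 to 6.22). H19 went from 4.65 to 0.0988 CPM (47.1-fold lower), Mest from 27.1 to 0.790 CPM (34.3-fold lower), Plagl1 from 8.85 to 1.43 CPM (6.19-fold lower) and Peg3 from 40.3 to 9.72 CPM (4.15-fold lower). Genes that were near level included Gnas (1121 and 1032 CPM), Impact (90.5 and 105 CPM) and Ndn (76.7 and 76.0 CPM). Kcnq1ot1 (44.0 and 44.9 CPM), Sgce (51.8 and 57.7 CPM), Snrpn (19.6 and 18.2 CPM) and Inpp5f (11.3 and 12.0 CPM) were among them too. Zim1 had 62 UMIs in the neonatal and 1 in the 24-month library, a ratio between 0.000325 and 0.0754.

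**Figure D5:**
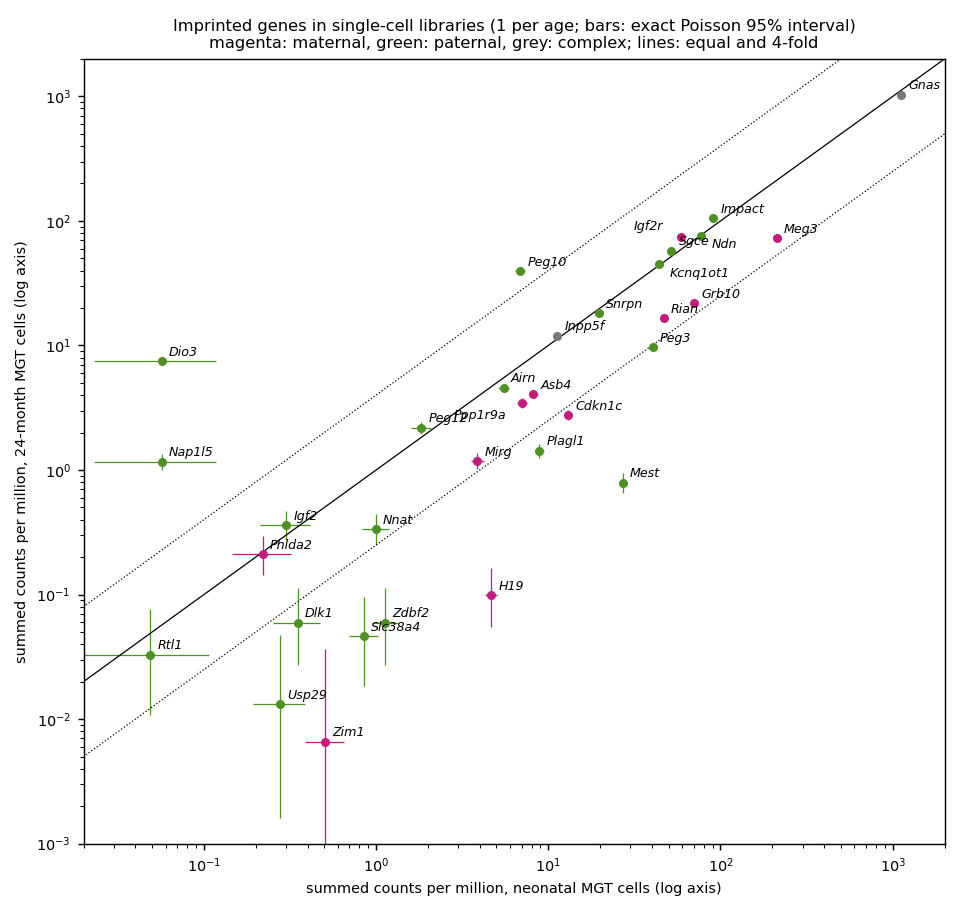
Summed CPM of each imprinted gene in the neonatal (horizontal, log axis) and the 24-month (vertical, log axis) single-cell library of MGT cells, 1 library per age, with exact Poisson 95% intervals; the solid line marks equal levels and dotted lines a 4-fold difference. Dio3, Nap1l5 and Peg10 lie above the upper dotted line, and the genes near the solid line include Gnas, Impact and Ndn.

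Cells were clustered here without the imprinted genes and named from markers, since the cell types are rebuilt and not the study's. Fibroblast markers were seen in most cells, so a cluster was called fibroblast-like only where no other type qualified. Fibroblast-like clusters held 1275 neonatal and 2893 24-month cells, and different clusters held most of them: cluster 0 had 1142 neonatal and 7 24-month cells and cluster 9 had 14 and 2584. Both had 8 fibroblast markers detected, with a median log2 level against all other cells of -0.507 in cluster 0 and 1.33 in cluster 9. Cluster 0 also had 3 cardiomyocyte and 3 pericyte markers detected, so the cells compared are not a matched type. Within the fibroblast-like cells 11 of 32 imprinted genes differed 4-fold (3 higher and 8 lower). The share of all genes that differed this much within these cells was not computed. The count can therefore not be read as particular to the imprinted genes. Meg3 went from 246 to 73.0 CPM, Rian from 56.9 to 17.6, Grb10 from 76.7 to 24.9, Plagl1 from 7.81 to 1.56 and Mest from 4.98 to 0.264 CPM. Dio3 went from 0.0857 to 8.61 CPM (ratio 101, interval 48.6 to 251), Peg10 from 9.15 to 44.9 and Nap1l5 from 0.0612 to 1.27 CPM. Igf2r, lower with age in bulk, was 56.0 CPM in fibroblast-like cells of neonatal mice and 78.0 CPM in those of 24-month mice. All these cells had received MGT. Free RNA in the droplets can add to low levels such as those of Mest and Plagl1, and its part was not tested. In macrophage-like cells of the same libraries Mest stood at 0.829 and 0.156 CPM and Plagl1 at 0.332 and 0.313 CPM, neonatal first, each from 2 to 6 UMIs.

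Some imprinted genes were far higher in another cell type. Mest stood at 1140 CPM (1095 to 1185) in the 72 neonatal endothelial-like cells, against 4.98 CPM in neonatal fibroblast-like cells, and at 107 CPM in the 65 endothelial-like cells of 24 months. Different clusters held these cells at each age: cluster 5 had 71 neonatal and 0 24-month cells, with a median of 25370 UMIs, and cluster 12 had 1 and 65, with a median of 5174. H19 stood at 191 CPM in neonatal endothelial-like and 1.49 CPM in fibroblast-like cells, Plagl1 at 168 and 7.81 CPM and Igf2r at 365 and 56.0 CPM. Cdkn1c was highest in macrophage-like cells, where it averaged 161 CPM over 201 neonatal cells and 6.20 CPM over 806 cells of 24 months, against 4.75 and 2.34 CPM in fibroblast-like cells. Meg3 was low in macrophage-like cells, at 20.2 and 18.0 CPM, and in neonatal cardiomyocyte-like cells, at 12.0 CPM. The latter were only the 254 cells of cluster 2, with a median of 1938 UMIs. Clusters with 2026 neonatal and 2009 24-month cells carried no name. They include cluster 1, with 534 neonatal cells and a median of 43880 UMIs. Its top genes include Nppa, Myh6 and Tnni3, and 7 cardiomyocyte and 4 epicardial markers were detected in it. The 12.0 CPM therefore does not cover all cells with cardiomyocyte markers.

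The lists of related genes are read against the shares of all genes called in the same comparisons, 52.5%, 55.2% and 54.5% at 3, 12 and 24 months, 22.7% with added Nr4a3 and 54.5% in the knockdown. Of 14 tested genes that keep or remove imprints, 5 were higher and 6 lower at 3 months than in neonatal fibroblasts, 2 and 8 at 12 months and 2 and 10 at 24 months, with a median log2 fold change of -0.14 at 3 months. Zfp57 went from 50.6 to 20.1 CPM at 3 months (-1.33 ± 0.08) and to 11.9 CPM at 24 months (-2.09 ± 0.09), Dnmt3a from 143 to 56.8 CPM (-1.33 ± 0.06), and Dnmt3l rose from 0.301 to 9.21 CPM (4.87 ± 0.26). In the knockdown 5 were higher and 6 lower, with Dnmt1, the maintenance methyltransferase, going from 137 to 62.5 CPM (-1.13 ± 0.09). With added Nr4a3 5 of 13 were higher and 1 lower. Of 11 genes of the IGF pathway outside the 34, 4 were higher and 5 lower at 3 months (median -0.10): Igf1r went from 363 to 139 CPM (-1.38 ± 0.04), and Igfbp5 rose from 5.36 to 32.6 CPM (2.62). In the knockdown 6 were higher and 4 lower (median 0.77), with Igfbp5 going from 492 to 12.9 CPM (-5.25 ± 0.12) and Igf1 from 15.2 to 63.1 CPM (2.05).

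Of 30 further genes reported as imprinted in some tissues, 11 were higher and 14 lower at 3 months, 10 and 11 at 12 months and 9 and 13 at 24 months, with a median log2 fold change at 3 months of -0.15. The difference between this list and the 34 genes was not tested. Dcn, the matrix proteoglycan decorin, rose from 155 to 2184 CPM (3.82 ± 0.05) and Ampd3 from 21.8 to 111 CPM (2.35). In the knockdown 7 were higher and 14 lower (median -0.48), and with added Nr4a3 5 of 28 were higher and 3 lower. Of 15 proliferation genes 14 were higher and 0 lower at 3 months than in neonatal fibroblasts, 3 and 8 at 12 months and 1 and 10 at 24 months, while the counts of the imprinted genes were 4 and 23, 5 and 22, and 5 and 22. Whether the imprinted genes moved with proliferation was not tested.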

How the data were processed

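The authors deposited raw counts per gene and FPKM values for 28 bulk libraries in 4 tables, and single-cell count matrices for 2 libraries; FPKM values were not used. Per the submitters' processing notes, the counts were made with Trimmomatic 0.36, SAMtools and featureCounts (Subread 1.5.1) on mm10; the aligner, annotation and strand setting are not given in the sources used here. Per the labels' protocols, libraries used rRNA depletion and a stranded mRNA kit, while their molecule field says polyA RNA. Column names were matched to sample titles, where some ages differ (13m and 15m in the columns against 12 and 18 months in the titles). The knockdown file holds 4 columns that matched no sample and were not used.

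Each table was fitted whole with edgeR 4.0.16 (R 4.3.3): filterByExpr, TMM scaling, 1 coefficient per group and the robust quasi-likelihood test, with Benjamini-Hochberg adjustment over all 15029 to 18045 genes tested in a table. The threshold was an adjusted p under 0.05 in each of 20 comparisons. Standard errors are the log2 fold change divided by the root of F, an approximation. CPM values use TMM-scaled library sizes. The fits were tested on simulated data. Values in every library are given for genes that reach a group mean of 10 CPM and are called, and for the gene with the largest change at a locus; other genes are given by range, or with their values where a result turns on them. From each list at most 4 genes with the smallest p are named. Genes that overlap on opposite strands (Kcnq1ot1 and Kcnq1, Airn and Igf2r, Igf2os and Igf2, Nap1l5 and Herc3, Mest and Copg2, Nnat and Blcap) may share reads. Gene positions are from GENCODE M21 on GRCm38, matched by identifier or symbol.

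Single-cell barcodes needed 500 detected genes and a mitochondrial share of no more than 20%; they were normalised to 10000 counts per cell and clustered in scanpy 1.11.5 (2000 variable genes without the 34, 50 components, 15 neighbours, Leiden resolution 0.5) into 14 clusters. Summed counts carry exact Poisson intervals at a level of 95%.

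The 34 genes and the lists (imprint maintenance, IGF pathway, other reported imprinted genes, proliferation and cell type markers) were chosen with earlier results of these data known. Alternatives were DESeq2 1.42.0, its size factors in edgeR, no filter on low counts, only the compared groups in the fit, a replicate block, each library left out and, added after seeing the data, halved counts in the knockdown table.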

Additional observations from a re-analysis of the deposited data

Results flagged for a closer look

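The effect of MGT on several imprinted genes differed between ages by a test of the interaction in edgeR, over 2 libraries per group. Between neonatal and 3-month cells the difference of the log2 effect, 3 months minus neonatal, was 1.75 ± 0.16 for Peg3 (adjusted p = 5.43e-08), 0.99 ± 0.21 for Meg3 (0.0205), 0.62 ± 0.13 for Rian (0.00487), 0.98 ± 0.27 for Mirg (0.0422) and 0.77 ± 0.20 for Plagl1 (0.026). It was -1.29 ± 0.16 for Peg10 (1.02e-05) and -1.30 ± 0.31 for Mest (0.0134).

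Between neonatal and 18-month cells, 18 months minus neonatal, the difference was 1.13 ± 0.21 for Meg3 (adjusted p = 0.0127), 0.77 ± 0.13 for Rian (0.000613), 0.86 ± 0.21 for Plagl1 (0.0178) and -1.03 ± 0.27 for Peg12 (0.0329). Between 3 and 18 months it was -1.23 ± 0.17 for Peg3 (0.000123) and 1.12 ± 0.16 for Peg10 (0.0002). The calls of Peg3 and Peg10 remained with each library left out. Those of Meg3, Mirg, Plagl1, Mest and Peg12 were lost in at least 1 such fit, as was that of Rian at 3 months without the second 3-month MGT library (0.50, adjusted p = 0.0857).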

How the results depend on the processing

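No imprinted gene that was called changed direction under the alternatives tried, and 2574 of 2849 values of single genes kept their side of the threshold, while 275 were no longer past it. Leaving out each library in turn gave 27 to 28 calls of 27 at 3 months against neonatal fibroblasts and 20 to 24 of 25 in the Nr4a3 knockdown. The counts that moved most were 5 to 10 (10 with all libraries) for 24 against 12 months, 15 to 17 (24) and 4 to 7 (8) for MGT cells at 3 months against neonatal and 18 against 3 months, 2 to 3 (4) for MGT against LacZ in neonatal cells, 3 to 4 (5) for the same at 18 months, and 2 to 11 (7), 1 to 3 (4) and 2 to 4 (2) for the differences of the MGT effect, 3 months minus neonatal, 18 months minus neonatal and 18 minus 3 months. With added Nr4a3 the range was 4 to 19 (11): 19 without the first control library, 11 without the second, 7 without the first Nr4a3 library and 4 without the second Nr4a3 library. For MGT against LacZ in neonatal cells DESeq2 gave 2 calls and a fit of only the compared groups 11. The cause of these shifts was not tested, except that a fit without a library has fewer residual degrees of freedom, and its lone library is assumed to vary like the other groups. Each group had 2 libraries, which limits the precision of every comparison, and genes under about 1 CPM rest on few counts.

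With the replicate number as a block, the count of calls was the same in 15 of 20 comparisons and differed by 1 in the other 5: 26 at 12 months against neonatal fibroblasts (27 without the block), 17 at 24 against 3 months (18), 6 for MGT against LacZ at 18 months (5), 10 with added Nr4a3 (11) and 24 in the knockdown (25), where H19 was lost (adjusted p = 0.24). Deviations of same-numbered libraries correlated at -0.039 to 0.032 in the fibroblast ages and -0.063 to 0.069 in the MGT set. With added Nr4a3 the value was -0.078 and in the knockdown 0.0034. No shift shared by same-numbered libraries was thus seen. If the libraries of a group are technical repeats, these values cannot show whether the numbers pair them.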
